A study of Mus musculus with 8 samples.

Results

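Gadd45a and Gadd45b are a pair of stress genes of the growth arrest and DNA damage family, and their anti-IRF5 CUT&Tag peaks in mouse macrophages are described here. Members were the peaks whose nearest gene, in the authors' annotation, was Gadd45a or Gadd45b, or whose annotation put them in the Promoter class of either gene. There were 35 such peaks among the 105945 peaks of 4 library lists, 16 for Gadd45a and 19 for Gadd45b, and 16 more in 2 lists of whole conditions. Both genes were picked from 21295 named genes because of where their peaks lay in these libraries, so their values are a description and no test was run on them.

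The study mapped DNA bound by IRF5, a transcription factor of the Toll-like receptor pathway, with an antibody that brings a transposase to its target and so releases the neighbouring fragments for sequencing. The cells were macrophages grown from the bone marrow of wild-type mice and given PBS, called the control below, or CpG, an unmethylated DNA sensed by the receptor TLR9, with 2 anti-IRF5 libraries in each of 2 conditions. The dose and time of CpG, the strain, the age and the sex of the mice were not given in the sources used here, nor was it said whether libraries came from separate animals or cultures, so any spread between libraries may be technical. By the names of the lists, both control libraries were called against control IgG 2 and both CpG libraries against CpG IgG 1, whose name is spelled in 2 ways, so the background follows the condition. The control lists held 29226 and 37315 peaks and the CpG lists 13553 and 25851, for libraries 1 and 2 of each, and they give no read totals, so the depth is unknown. Of 17 named macrophage markers 11 to 15 had a Promoter-class peak in each library, against 1 to 4 of 18 named markers of 5 other blood cell types. Of all named genes 23.9% and 28.4% had one in the control libraries, and 10.3% and 22.1% in the CpG libraries. Genes such as Cd68 and the complement genes C1qa and C1qb had one in all 4 libraries, as had 5.41% of named genes.

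GADD45 proteins are small acidic proteins that cells make in response to DNA damage, growth factor loss and inflammatory signals. They bind the replication clamp PCNA, the cell cycle inhibitor p21 and the mitotic kinase CDK1, and they activate MAP3K4, a kinase upstream of p38 and JNK. Gadd45a is a classic target of p53, and Gadd45b, first found as a myeloid differentiation gene, is a target of NF-kB that limits cell death. In macrophages both are known as early stress genes.

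Gadd45a lies on chromosome 6 from 67012079 to 67014441 on the minus strand, and Gadd45b on chromosome 10 from 80765906 to 80768038 on the plus strand. Coordinates follow the authors' lists, and their genome build was not given in the sources used here. The long non-coding gene E230016M11Rik starts inside Gadd45a, 859 bp downstream of its start, and runs the other way across it (67013582 to 67057638, plus strand). CUT&Tag fragments carry no strand, so a peak over the Gadd45a start cannot be assigned to one of these genes.

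The DNA just upstream of each start is shown to let the promoters be compared. Both sequences cover bases 250 to 51 before the RefSeq start, in the direction of transcription (GRCm38.p6, chr6:67037458-67037657, minus strand, and chr10:80929841-80930040, plus strand). Capitals mark matches, on either strand, to the octamer ATTTGCAT, the CCAAT box (CCAAT) and the E-box CACGTG.
Gadd45a: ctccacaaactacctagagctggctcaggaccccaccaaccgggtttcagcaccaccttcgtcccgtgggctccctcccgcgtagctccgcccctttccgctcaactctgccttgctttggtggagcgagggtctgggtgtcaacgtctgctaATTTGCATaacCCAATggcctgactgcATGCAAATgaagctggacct
Gadd45b: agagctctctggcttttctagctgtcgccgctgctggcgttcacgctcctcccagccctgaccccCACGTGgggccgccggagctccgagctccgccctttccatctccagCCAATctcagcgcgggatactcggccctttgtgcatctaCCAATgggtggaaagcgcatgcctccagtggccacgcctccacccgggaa

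The Gadd45a stretch held a pair of octamers on opposite strands, at bases 97 to 90 and 70 to 63 before the start, with a CCAAT box between them at bases 86 to 82. An octamer was found in 1.32% of the 32841 RefSeq promoter stretches of this length. Gadd45b had no octamer there, but had CCAAT boxes at bases 139 to 135 and 100 to 96 and an E-box at bases 185 to 180 (28.4% and 4.34% of promoters). Neither stretch matched the AP-1 site TGANTCA, the cyclic AMP response element TGACGTCA, the TATA box TATAAA, the interferon-stimulated response element or the NF-kB site (5.58%, 0.828%, 9.14%, 2.41% and 5.71% of promoters), which says only that these letters are not in this window. Bases nearer to the start than base 51 were not searched, for the TATA box or any other site. The RefSeq spans of Gadd45a and Gadd45b are 51 and 19 bp shorter than those of the files and stem from another set of coordinates, so bases and peaks were not aligned.

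A peak covered the Gadd45a start in every library, and its summit lay nearer to the start in both CpG libraries than in both control libraries. In control 1 the peak ran from 67014175 to 67014510 with its summit 197 bp downstream of the start. In control 2 it ran from 67013982 to 67014620 with the summit 76 bp downstream. In CpG 1 it ran from 67014191 to 67014555 and in CpG 2 from 67013114 to 67014743, with summits 15 and 12 bp downstream. The CpG summits were 3 bp apart, while the control summits were 121 bp apart.

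The authors' annotation followed these summits. Both control peaks were classed as exon and 5' untranslated region of Gadd45a, and both CpG peaks as its Promoter, although all 4 spans cross the start. The lists of whole conditions gave the same classes, with summits 76 bp downstream in the control and 12 bp downstream in the CpG list. Gadd45a was thus one of 130 named genes with a Promoter-class peak in both CpG and neither control library, 0.610% of named genes, which is the pattern it was chosen for. That number was 205 and 340 without control replicate 1 and control replicate 2, and 764 and 475 without CpG replicate 1 and CpG replicate 2. It was 203 with lists of equal length. Of the 2052 named genes (9.64%) with a peak within 1 kb of the start in all 4 libraries, 34 (1.66%) had the class in CpG alone and 55 (2.68%) in control alone.

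**Figure D1:**
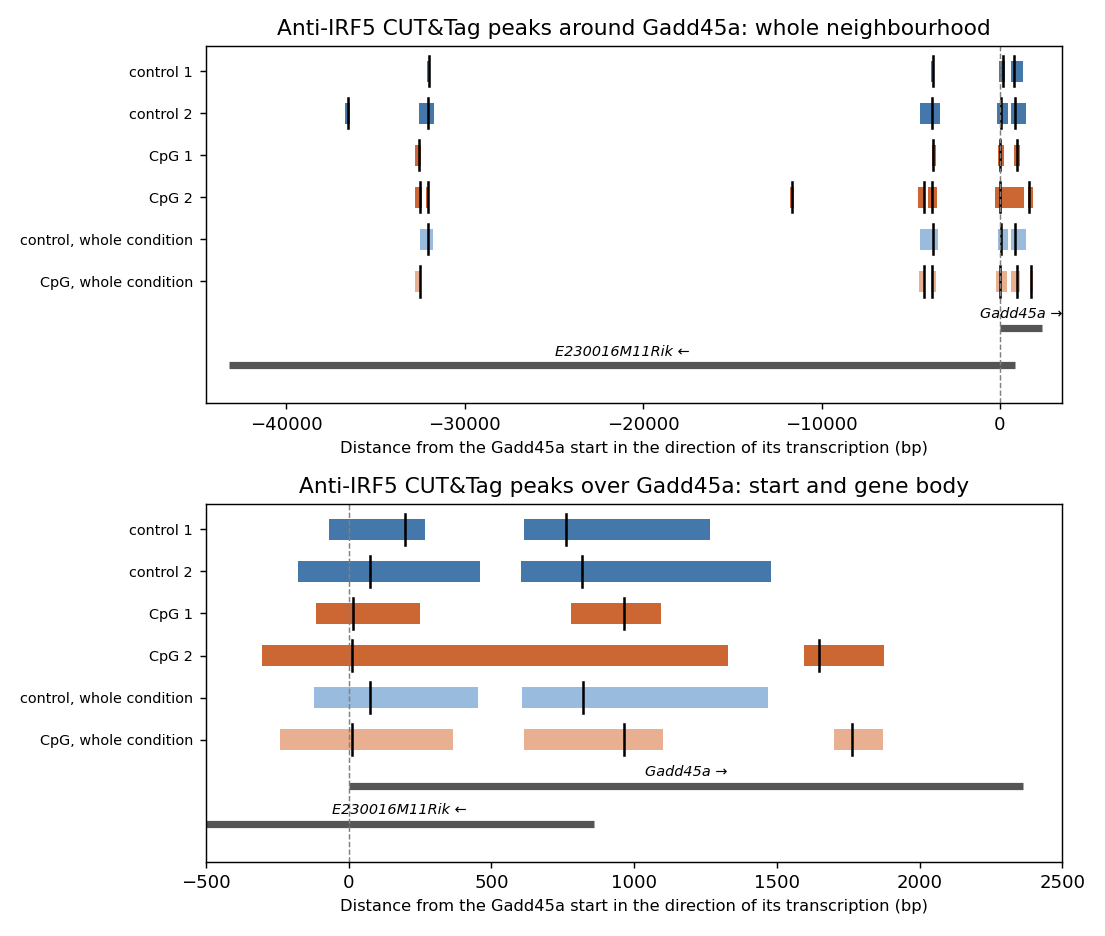
Peaks around Gadd45a in the 4 library lists and the 2 lists of whole conditions. The x axis is the distance in bp from the gene's start, positive downstream. Bars are peak spans, black ticks are summits, and grey bars below are the genes with arrows for their direction. Over the start (lower panel) the CpG summits lie 15 and 12 bp downstream and the control summits 197 and 76 bp downstream, while all 4 spans cross the start.

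The shift in the mean summit of Gadd45a was of a common size. The means were 136.5 ± 85.6 bp in the control and 13.5 ± 2.12 bp in the CpG libraries (SD, n = 2 each), a CpG minus control difference of -123 bp. It was -62.5 bp without control replicate 1 and -184 bp without control replicate 2. Among the 2052 genes this size was at the 65.6 percentile, against a median of 72.0 bp, and 703 genes had a larger one. Both CpG summits were upstream of both control summits at 335 of these genes (16.3%), and downstream of both at 341 (16.6%). Gadd45b had a difference of -0.500 bp, at the 0.975 percentile of size. When the peak with the highest fold enrichment within 1 kb stood for each library, the Gadd45a difference was -493 bp, because control 2 was then represented by a second peak 816 bp downstream. That difference was -802 bp without control replicate 1 and -184 bp without control replicate 2.

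**Figure D2:**
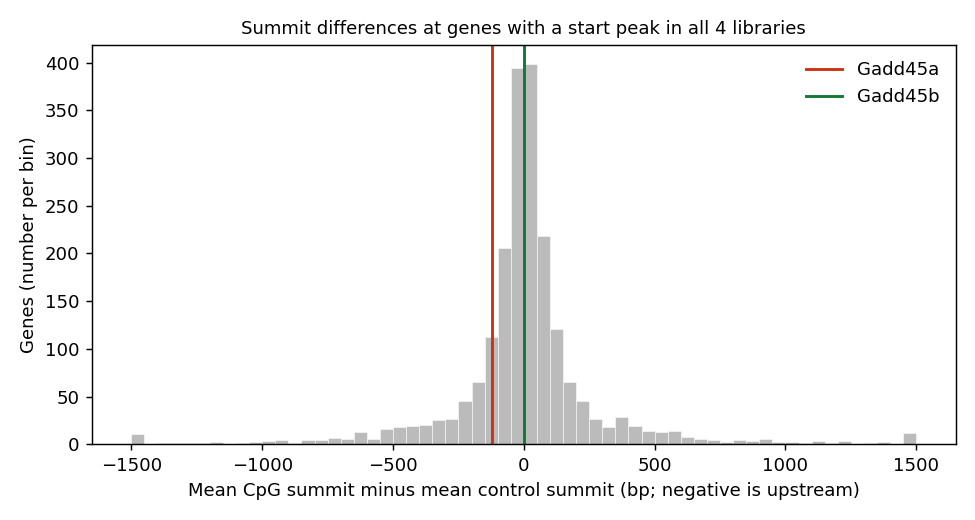
Difference between the mean CpG summit and the mean control summit, relative to the gene's start, at 2052 named genes with a peak within 1 kb of the start in all 4 libraries, with the summit nearest to the start taken in each. The x axis is in bp, the y axis counts genes, and differences beyond the axis are placed in the end bins. Gadd45a (-123 bp) lies in the flank of the central mass and Gadd45b (-0.500 bp) at its centre.

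The height of the Gadd45a start peak did not separate the conditions, whereas its fold enrichment did. The pileup, the signal at the summit, was 26 and 56 in the control libraries 1 and 2, against 35 and 50 in the CpG libraries 1 and 2, so the lowest and the highest value were both control. Fold enrichment, the ratio of pileup to local background as given by the peak caller, was 5.00, 9.26, 11.7 and 21.2 in the same order. This separation depends on the peak taken. It also held by the peak with the highest pileup within 1 kb, with 3.25 and 9.26 in control 1 and control 2. By the peak with the highest fold enrichment it did not. The second peak of control 2 within 1 kb had 14.3, above the 11.7 of CpG 1. Within its own list the start peak stood at the 30.6 and 81.4 percentile of fold enrichment of the control libraries 1 and 2, against the 98.8 and 98.0 percentile of the CpG libraries. By pileup the percentiles were 78.8, 93.8, 92.6 and 92.8. Percentiles of lists of unequal length cannot show whether binding changed. At 301 of the 2052 genes (14.7%) both CpG percentiles by fold enrichment lay above both control percentiles, as at Gadd45a, and at 631 (30.8%) below both.

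The local background differed with condition at Gadd45a. Divided by the lowest background of its list, the background implied by pileup and fold enrichment was 4.44 in control 1 and 5.09 in control 2, and 1.58 in both CpG 1 and CpG 2. The CpG values stood below both control values here and at 770 of the 2052 genes (37.5%), and above both at 570 (27.8%). Both libraries of a condition were called against 1 IgG library, so a background value has no replicate, and the part of the background in the higher fold enrichments was not tested. Without control replicate 1 the CpG minus control difference in fold enrichment percentile, by the peak with the highest fold enrichment, fell from 36.3 to 4.78 points, and it was 67.8 without control replicate 2. It was 9.71 points between the lists of whole conditions, 6.50 ranked by pileup, 18.5 ranked by −log10 p and 56.5 by the peak with the highest pileup.

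**Figure D3:**
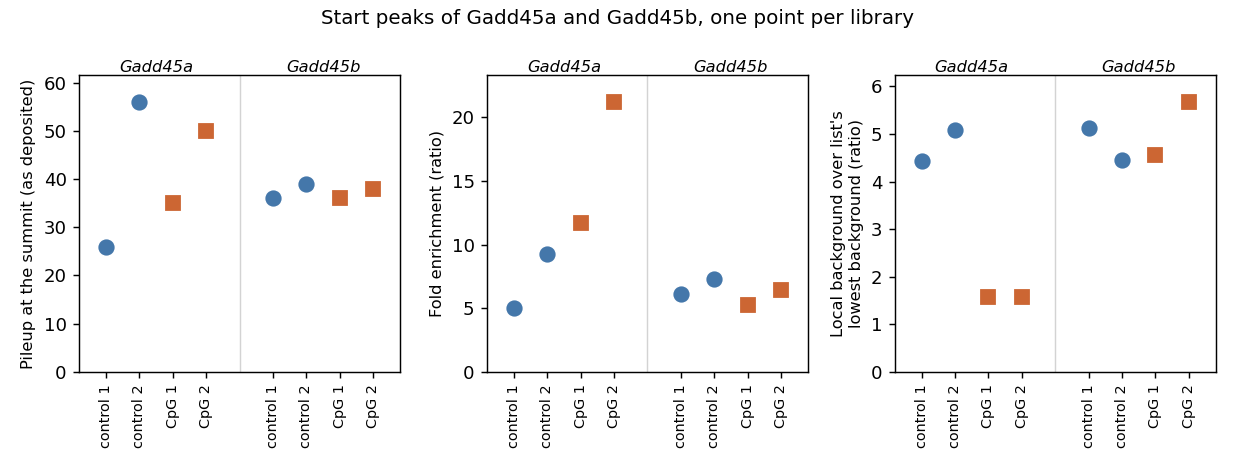
Pileup at the summit (left), fold enrichment (middle) and local background over the lowest background of the list (right) of the start peaks, one point per library, circles for control and squares for CpG. Pileups and fold enrichments belong to their own lists, whose depth is unknown. For Gadd45a the pileups of the conditions overlap (26 and 56 against 35 and 50), while the background is 4.44 and 5.09 in the control and 1.58 in both CpG libraries. For Gadd45b all 3 quantities overlap.

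Inside Gadd45a, a second peak lay around the start of the antisense E230016M11Rik. Its summit was 760 and 816 bp downstream of the Gadd45a start in control 1 and control 2, and 966 bp in CpG 1. In CpG 2 the long start peak, 1630 bp, ran over this position, so no separate summit was called. The control summits were classed as exon of E230016M11Rik and that of CpG 1 as its Promoter. In CpG 2 a further peak 1647 bp downstream of the Gadd45a start was in the Promoter class of E230016M11Rik. This gene was the sole neighbour within 200 kb, of 7 named, with a Promoter-class peak in any library, and like Gadd45a it had one in both CpG and neither control library. The second peak had fold enrichments of 3.25, 14.3 and 5.90 in control 1, control 2 and CpG 1, at the 2.32, 93.6 and 70.3 percentile. The control libraries thus held both the lowest and the highest of these percentiles.

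Upstream of Gadd45a, inside the E230016M11Rik intron, a pair of regions was called in all 4 libraries. In the nearer one the main summits lay 3734 and 3808 bp upstream in the control libraries, against 3735 and 3812 bp upstream in the CpG libraries. Their fold enrichments were 7.86, 9.67, 3.67 and 10.5, at the 81.2, 83.3, 11.5 and 86.8 percentile of each list, so CpG 1 stood apart from the other three. The local background over the list's lowest was 1.56 in both control libraries and 3.80 and 2.84 in CpG 1 and CpG 2, the opposite order to that at the start. CpG 2 had a second summit 4276 bp upstream, which the wider peak of control 2 (67017824 to 67018919) covered.

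The farther region ran from 67046166 to 67047214 and had summits in 2 places. The control summits lay 31991 and 32065 bp upstream of the start, and that of CpG 1 lay 32529 bp upstream. CpG 2 had both, at 32063 and 32507 bp. The peak of control 1 (67046402 to 67046573) did not overlap that of CpG 1 (67046884 to 67047214), whereas that of control 2 (67046166 to 67046974) overlapped both. The list of the control condition had its summit 32050 bp and that of the CpG condition 32507 bp upstream. Fold enrichments here were between 5.19 and 7.97. Peaks 11661 bp upstream in CpG 2 and 36530 bp upstream in control 2 were each called in 1 library.

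Gadd45b had a Promoter-class peak just upstream of its start in all 4 libraries. A Promoter-class peak in all 4 was found at 1152 named genes (5.41%), and at 993 (48.4%) of the 2052 genes with a start peak in all 4. The peak of Gadd45b nearest to its start is described next. This peak ran in control 1 from 80764570 to 80765959, and in control 2 from 80765624 to 80766084. The CpG 1 peak ran from 80765624 to 80765857 and the CpG 2 peak from 80765308 to 80766896. Its summits lay 142 and 67 bp upstream of the start in the control libraries and 108 and 102 bp upstream in the CpG libraries. The CpG summits fell between the control summits.

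The Gadd45b start peak was of like height in its lists. Its pileup was 36 and 39 in the control libraries and 36 and 38 in the CpG libraries, and its fold enrichment 6.09, 7.26, 5.29 and 6.47. The percentiles of fold enrichment were 59.2, 66.4, 56.8 and 56.3, lower than those of Gadd45a in 3 of 4 libraries, all but control 1. Both CpG percentiles thus lay below both control percentiles, as at 631 of the 2052 genes (30.8%). The local background over the list's lowest was 5.13, 4.45, 4.56 and 5.67, with overlapping conditions. The CpG minus control difference in percentile was -6.25 points. Leaving out control replicate 1 gave -9.89 and leaving out control replicate 2 gave -2.61, and the difference turned to 19.1 with lists of equal length and to 1.91 when peaks were ranked by pileup.

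**Figure D4:**
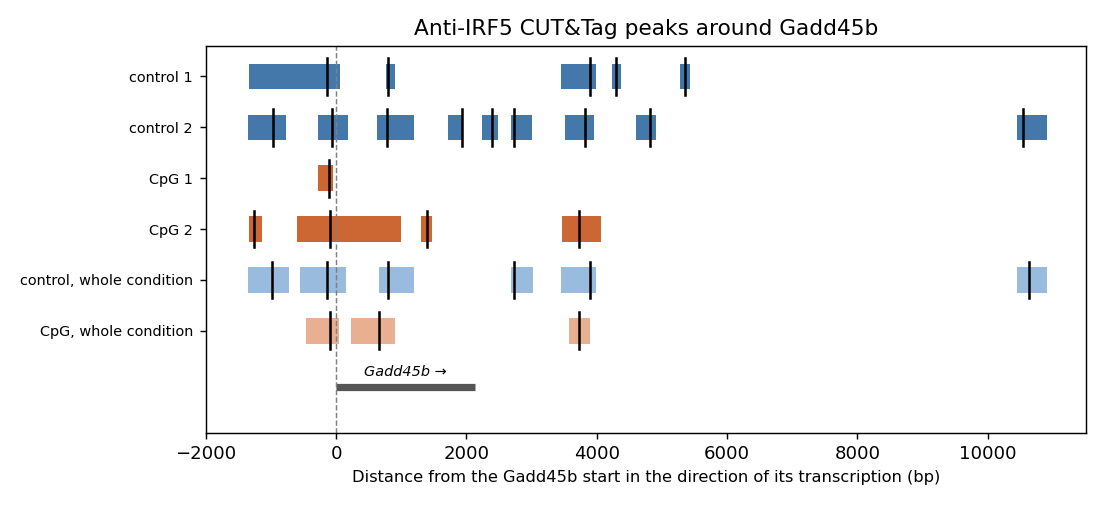
Peaks around Gadd45b in the 4 library lists and the 2 lists of whole conditions, with the distance in bp from the gene's start on the x axis, positive downstream. Bars are peak spans and black ticks are summits. Every list has a summit 67 to 142 bp upstream of the start, whereas the peaks inside and downstream of the gene are mostly those of the control libraries and CpG 2.

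The number of peaks with Gadd45b as the nearest gene differed more between libraries than that of Gadd45a. It was 5 and 9 in the control libraries, against 1 and 4 in the CpG libraries, in the order of the lengths of the lists. For Gadd45a it was 3, 4, 3 and 5. The CpG minus control difference for Gadd45b was -4.50 peaks, and -2.50 without control replicate 2. With lists of equal length the Gadd45b counts were 2, 4, 1 and 2. CpG 1, the shortest list, had no Gadd45b peak beyond the start.

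Beyond the start, an upstream summit of the Promoter class was called 973 bp before the Gadd45b start in control 2 and 1264 bp before it in CpG 2, while in control 1 the start peak of 1390 bp reached over these positions. An intronic summit lay 793 and 786 bp downstream of the start in the control libraries. In CpG 2 the start peak, 1589 bp long, covered that position, and another intronic summit lay 1390 bp downstream. Downstream of the gene's end, a region was shared by 3 libraries, with summits 3892, 3813 and 3720 bp from the start in control 1, control 2 and CpG 2. Its fold enrichments were 7.01, 8.15 and 7.77, each above that of the same library's start peak. Of 10 merged Gadd45b regions 1 was called in all 4 libraries and 8 in 1 library. Of the 6 at Gadd45a, counting those over the gene body, 3 were called in all 4 and 3 in 1. No region at either gene was called in both libraries of one condition and neither of the other. The shares of these patterns over all merged regions of the lists were not counted, so the region counts cannot be called particular to these genes.

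Gadd45g, the third member of the family, had a Promoter-class peak in all 4 libraries. Its summits lay 552 and 817 bp upstream of the start in the control libraries, against 73 and 98 bp upstream in the CpG libraries, by the Promoter-class peak with the highest fold enrichment. These CpG summits lay nearer to the start, as at Gadd45a, but here each summit given was upstream of it, and the control peaks also ran over it. Each control library had 2 Promoter-class peaks at Gadd45g and each CpG library 1, so a further control summit is not given. At Gadd45a the nearest summit was taken instead, and the share of genes with this order by the Gadd45g rule was not counted. Its fold enrichments were 10.9, 9.24, 4.52 and 7.62, at the 93.9, 81.3, 32.8 and 70.5 percentile of the lists. Of 4 further genes in the growth arrest and DNA damage list, Ddit3, which encodes the stress factor CHOP, and Ddit4 had a Promoter-class peak in all libraries but CpG 1, Ppp1r15a, also called GADD34, in control 1 alone, and Gadd45gip1 in none. These 4 were named after their values were seen.

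Genes that act with GADD45 proteins were read against all named genes. Named genes as a whole had one at 23.9% and 28.4% in the control libraries and at 10.3% and 22.1% in the CpG libraries, and counts below keep this order. Of 14 named partners and targets 4, 7, 3 and 6 had one. Mapk14, the gene of p38 alpha, was the gene among them with a Promoter-class peak in both CpG and neither control library. Its summits lay 78 and 68 bp upstream of its start, with fold enrichments of 6.80 and 8.54. This pattern was found at 130 named genes (0.610%), and the list was chosen with results of these data known. Mapk9, which encodes a JNK kinase, had a peak in all 4 libraries.

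Genes known to regulate Gadd45a or Gadd45b had Promoter-class peaks at 13, 13, 7 and 12 of 22 named members. Those with one in all 4 libraries were Brca1, Jun, Jund, Myc, the CCAAT-binding subunit gene Nfya, the NF-kB subunit gene Rela and Sp1, and Smad2 was control-only. Of 23 named p53 targets and DNA damage response genes 12, 12, 5 and 12 had one. Fas, Bbc3, which encodes the death protein PUMA, and Plk2 had it in all 4, and Chek2, Plk3 and Xpc in the control libraries alone. Of 16 genes of the integrated stress response 8, 9, 2 and 8 had one, with the kinase genes Eif2ak3 and Eif2ak4 in all 4 and Chac1 and Trib3 control-only. Control-only genes made up 4.30% of all named genes and CpG-only genes 0.610%. These lists were chosen with results of these data known, and their counts were not tested.

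By the percentiles of the strongest peak with each gene as its nearest, compared over 4 libraries among 5137 named genes, the genes most like Gadd45a were Spty2d1, Psma6, Gm8601, Ciao2a and Gm20721, at Euclidean distances of 5.17 to 7.18 percentile points. The profile of Gadd45a mixes sites, since its strongest peak was the start peak in CpG 1 and the peak of the nearer upstream region in the other three libraries, and the start peak of CpG 2 had E230016M11Rik as its nearest gene. For Gadd45b they were Mir6925, Tma16, Ube2e2, Gm22781 and Pum3, at 6.81 to 8.40 points, where the strongest peak was the start peak in CpG 1 and the region downstream of the gene in the other three.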

How the data were processed

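Anti-IRF5 CUT&Tag peaks of 4 libraries and 2 whole conditions were analysed. The submitters' processing notes name the tools MACS2 2.1.0, ChIPseeker, BWA 0.7.12 and fastp 0.20.0. The pileup, the signal at a summit, was deposited by the authors as whole numbers in the library lists and scaled in the lists of conditions. Fold enrichment is the authors' ratio of pileup to local background, and significance was deposited as −log10 of p and q, read from the order of columns with damaged headers. How the libraries of a condition were pooled was not given in the sources used here.

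Lines continuing an overlong annotation cell were skipped (281 to 1017 per list), and peaks on 21 assembled nuclear chromosomes were kept. The summit's distance was taken from the gene's outer start in the files. Local background was the pileup plus 1 over fold enrichment, minus 1, a formula that gave 1 shared lowest value for 12.2% to 25.4% of each library's peaks and none below it. A percentile is the share of a list's peaks below a value, with ties split. Regions were merged over at least 1 shared bp. The window of 1 kb each side of a start was used for start peaks.

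No test was run, because the lists hold no comparable counts and the members were chosen on these libraries. Members and lists were chosen with earlier results of these data known. Genes mentioned by name were both members and the 5 genes most alike per member. Listed genes were mentioned where they had a Promoter-class peak in all 4, both CpG only or both control only libraries. A further 4 of the family list were named after their values were seen. The steps ran in python 3.11.15 with numpy 2.4.6 and pandas 2.3.3 and were tested on simulated data. Alternatives were stricter peaks (−log10 q of at least 5), lists of equal length, other windows, peaks and ranks, lists of conditions and leaving out each library. The IgG samples were not analysed here.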

Additional observations from a re-analysis of the deposited data

How the results depend on the processing

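The class of Gadd45a (Promoter in CpG, not in control libraries), that of Gadd45b and the presence of a start peak at both were the same under every alternative run. The class was deposited with each peak, so filtering a list or leaving out a library could remove a peak but not change its class. This sameness is therefore no added evidence for the classes. The Gadd45a summit difference (-493 bp by the peak with the highest fold enrichment) was -123 bp by the nearest summit and -808 bp between the lists of whole conditions, and ranged from -802 to -184 bp when 1 library was left out. That of Gadd45b (-0.500 bp) was 803 bp between those lists, whose CpG list has its highest fold enrichment in the intron, and ranged from -38.0 to 37.0 bp when 1 library was left out. The Gadd45b percentile difference (-6.25 points) was -16.2 with stricter peaks, 19.1 with lists of equal length, 3.18 with the lists of whole conditions, 1.91 ranked by pileup and 1.53 ranked by −log10 p, and -9.89 to -2.61 when 1 library was left out, and the cause was not tested. Peaks nearest to Gadd45b differed by -4.50, by -1.50 with lists of equal length, and by -6.50 to -2.50 when 1 library was left out. Those nearest to Gadd45a differed by 0.500, and by -0.500 to 1.50 when 1 library was left out. The 130 CpG-only named genes became 203 with lists of equal length, 342 by the nearest gene of any peak, and 205 to 764 when 1 library was left out, which drops a requirement of the rule. No paired analysis was possible because no result comes from a test, and the labels tie the replicate numbers to no shared animal or day.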
